A study of Mus musculus with 12 samples.

Results

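The EGFR ligands are the 7 secreted or membrane-held growth factors that bind the epidermal growth factor receptor, encoded in mouse by Areg, Ereg, Hbegf, Tgfa, Btc, Egf and Epgn. They were taken by symbol from a count table of 30743 rows, and all 7 were present and passed the low-count filter of both fits used here. The 12 RNA-seq libraries came from lung cancer cells of mice on a mixed BL6/129 background, sorted after enzyme digestion by excluding cells stained for CD45, CD31, F4/80 or Ter119. The labels give every tumour the KT alleles without spelling the name out, and no age. The KT;Lkb1f/f libraries (3), also called Lkb1-floxed here, carry floxed alleles of Lkb1, whose other name is Stk11. The libraries titled sgSik1 (3) and sgSik1-3 (2) carry H11LSL-Cas9, a Cre-dependent Cas9 allele at the H11 locus, with guides against Sik genes, and their genotype label pools these 5, called Sik-targeted here. The KT libraries (4) carry none of these additions and served as the control. An alternative name mentions lentiviral Cre for KT replicates 2, 3 and 4 and for no other library, and the meaning of the range in sgSik1-3 is not spelled out. Nothing in the labels ties a library to its own animal, so every p-value here reflects library-to-library spread that could be technical.

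EGFR ligands are made as membrane-spanning precursors whose outer part, holding a single active EGF domain, is cut free by ADAM proteases, chiefly ADAM17 for amphiregulin, epiregulin, HB-EGF and TGF-alpha and ADAM10 for betacellulin and EGF. The freed ligand binds EGFR, which pairs with another ErbB receptor and signals through Ras and ERK, and ERK output in turn raises genes of feedback inhibitors. In the lung, amphiregulin is known from the repair of injured epithelium, where leukocytes as well as epithelial cells make it. Lkb1 is a kinase that switches on the salt-inducible kinases, which hold back CRTC coactivators of the transcription factor CREB. CREB binds the cAMP response element, CRE.

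Epgn, Ereg, Areg and Btc lie next to each other on chromosome 5 (mm10, GRCm38), within 375.477 kb from the start of Epgn at 91027517 to the end of Btc at 91402994. Areg spans chr5:91139599-91148432 and Ereg chr5:91074617-91093649, each including exons, introns and untranslated ends. Tgfa lies on chromosome 6 and Egf on chromosome 3. Promoter windows of 300 bases ran from 250 before to 50 after the annotated start. They were taken from RefSeq (GRCm38.p6) for 5 members, Areg, Tgfa, Btc, Egf (with 2 windows) and Epgn. No window of Ereg or Hbegf was searched. The 3 windows on chromosome 5 are printed because they alone among these 6 windows held a CRE letter match, and capitals mark those matches (CGTCA where the match lies on the other strand). Each is written 5′ to 3′ on the gene's own strand.
Areg (chr5:91139349-91139648, plus strand): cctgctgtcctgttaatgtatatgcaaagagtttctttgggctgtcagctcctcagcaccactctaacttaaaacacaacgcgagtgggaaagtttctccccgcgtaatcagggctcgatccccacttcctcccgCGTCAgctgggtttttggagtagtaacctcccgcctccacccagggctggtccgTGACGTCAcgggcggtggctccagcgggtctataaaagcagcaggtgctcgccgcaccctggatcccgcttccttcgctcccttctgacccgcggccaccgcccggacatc
Epgn (chr5:91027267-91027566, plus strand): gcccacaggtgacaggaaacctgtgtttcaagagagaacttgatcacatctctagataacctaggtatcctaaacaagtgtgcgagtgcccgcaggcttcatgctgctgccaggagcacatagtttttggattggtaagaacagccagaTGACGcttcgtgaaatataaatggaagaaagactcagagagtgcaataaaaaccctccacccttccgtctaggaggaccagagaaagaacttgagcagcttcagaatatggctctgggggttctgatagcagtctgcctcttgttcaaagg
Btc (chr5:91402945-91403244, minus strand): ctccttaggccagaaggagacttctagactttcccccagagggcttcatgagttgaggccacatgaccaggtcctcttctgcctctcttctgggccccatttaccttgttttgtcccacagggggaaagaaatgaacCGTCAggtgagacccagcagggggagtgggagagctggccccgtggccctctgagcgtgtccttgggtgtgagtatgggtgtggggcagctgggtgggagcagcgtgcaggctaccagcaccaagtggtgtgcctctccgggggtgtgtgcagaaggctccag

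The Areg window held the full CRE, TGACGTCA, at 61 to 54 bases before the start, and 588 of 32851 RefSeq windows of the same length (1.79%) hold those letters on either strand. The shorter CRE site TGACG had 3 matches there on either strand, 2 of them inside the full CRE and the third at 115 to 111 bases before the start. This shorter site is common, in 20.81% of windows, and 1 stood in the Epgn window and 1 in the Btc window. The letters TATAAA, held by 13.62% of windows, began 31 bases before the Areg start and 86 before the Epgn start. The AP-1 letters TGANTCA, held by 7.808% of windows, were in none of the 6, and neither CRE form was in the Tgfa window or either Egf window. These are letter matches in one window per start, and the count data do not show binding.

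Total counts per library were 3847760 to 13955181. KT replicates 2 and 3 stood apart from the other libraries: they had counts in 23582 and 23747 genes, against 14283 to 16533 elsewhere, and 998 and 1063 genes of odorant and vomeronasal receptors had counts there, against 14 to 58 elsewhere. The 4 most abundant transcripts took 27.5% (KT replicate 1) to 74.2% (sgSik1 replicate 1) of a library's counts, so levels are given as CPM, a gene's count scaled to a common library size, on effective library sizes from trimmed mean of M values (TMM) normalization. Stk11 stood at 9.28 to 16.5 CPM in KT;Lkb1f/f, 22.9 to 137 in Sik-targeted and 30.9 to 44.6 in KT libraries, and Sik1 RNA was higher in every KT;Lkb1f/f (148 to 214 CPM) and Sik-targeted library (105 to 514) than in KT (38.1 to 59.5). Sik2 stood at 17.5 to 31.7 CPM in KT;Lkb1f/f, 12.8 to 28.1 in Sik-targeted and 4.71 to 10.2 in KT libraries, and Sik3 at 38.7 to 56.6 CPM in KT;Lkb1f/f, 8.77 to 21.2 in Sik-targeted and 26.4 to 46.6 in KT libraries. Counts over a whole gene show neither which exons are floxed nor what a guide cut. Summed CPM of 5 epithelial markers (Epcam, Cdh1, Krt8, Krt18, Krt19) ran from 1445 to 2481 in KT;Lkb1f/f, 1756 to 4855 in sgSik1, 2517 to 3755 in sgSik1-3 and 894 to 1248 in KT libraries.

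Areg, Ereg and Hbegf rose in KT;Lkb1f/f and in Sik-targeted libraries, by 2.93-fold to 7.01-fold over KT. They also rose in the sgSik1 and the sgSik1-3 libraries taken separately, by 2.76-fold to 7.36-fold. No ligand passed the test in the lower direction in any of the 6 comparisons. Against KT, 3 of 7 members rose in KT;Lkb1f/f, where 0.611% of all 13575 tested genes rose, and 3 of 7 in Sik-targeted libraries, where 5.81% rose. The count was 3 of 7 in sgSik1 (2.71% of 15303 genes rose) and 3 of 7 in sgSik1-3 (1.74%). All libraries of the group lay above all KT libraries for 3 members in KT;Lkb1f/f, where 6.64% of all tested genes did, and for 4 in Sik-targeted (7.56%), 5 in sgSik1 (8.57%) and 4 in sgSik1-3 (15.3%), the additions being Tgfa and, in sgSik1, Btc. These comparisons share the same 4 KT libraries, so they are not independent of each other. Adjusted p-values throughout are from edgeR's quasi-likelihood test with Benjamini-Hochberg adjustment over all tested genes, with 0.05 as the threshold and no minimum fold. In bulk RNA, fewer cells expressing a gene and less RNA per cell cannot be told apart.

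**Figure D1:**
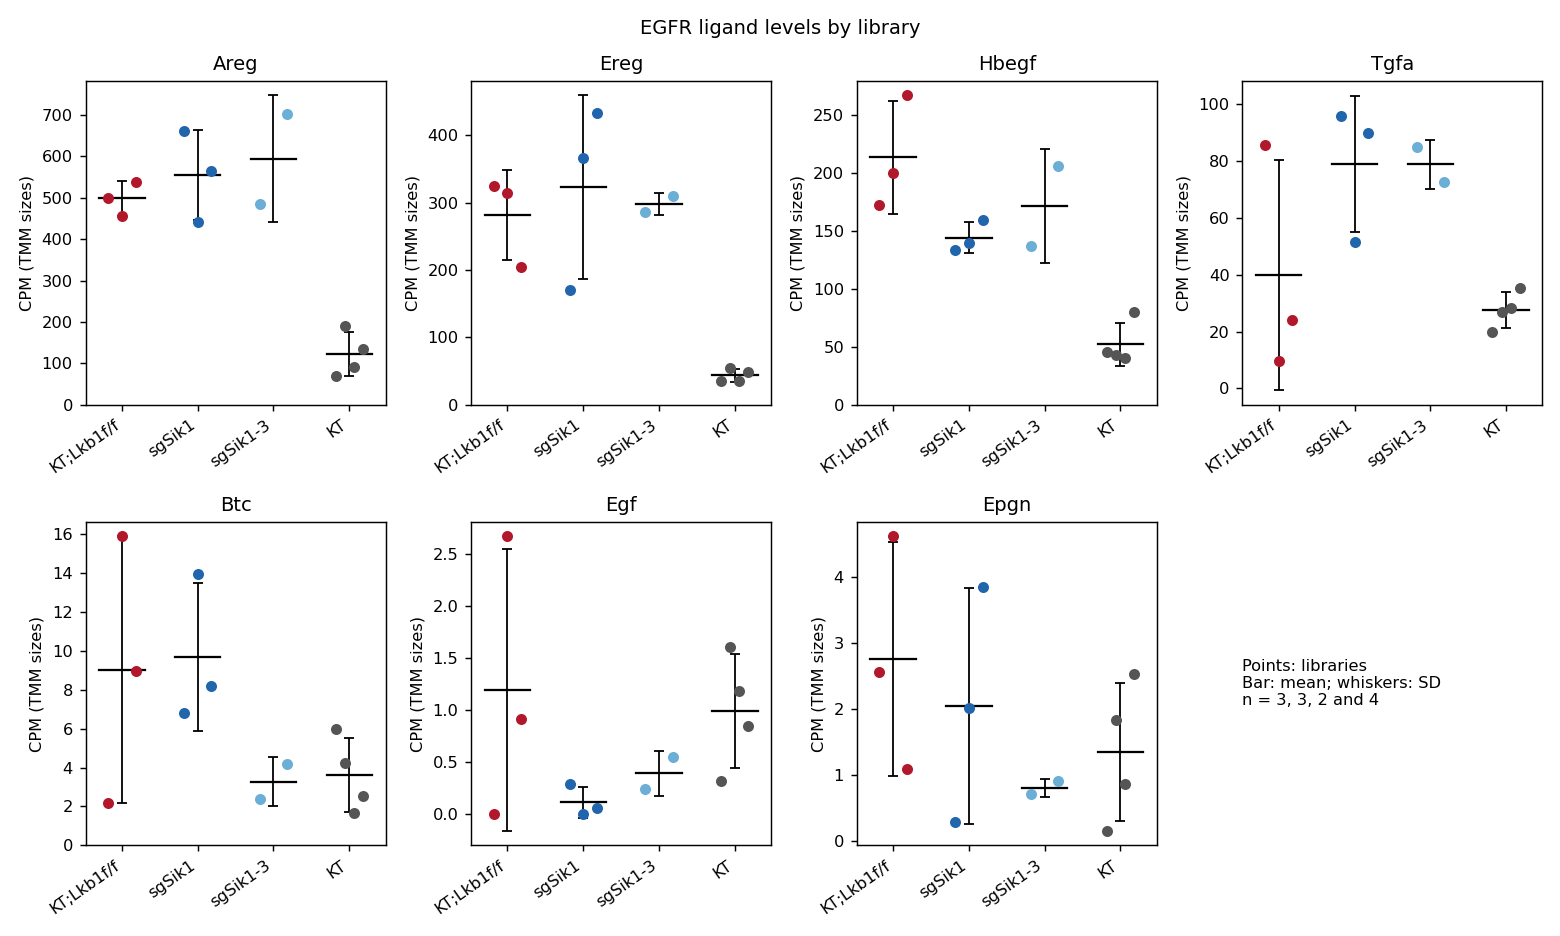
CPM of each of the 7 EGFR ligands (linear axes, a scale for each gene) in KT;Lkb1f/f (n = 3), sgSik1 (n = 3), sgSik1-3 (n = 2) and KT (n = 4) libraries, with a point per library, a bar at the mean and whiskers of 1 SD. All 8 libraries outside KT lie above all KT libraries for Areg, Ereg and Hbegf, and the groups overlap for Epgn.

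Areg encodes amphiregulin. It stood at 499.8, 456 and 539 CPM in KT;Lkb1f/f replicates 1 to 3, at 660.1, 442 and 564 CPM in sgSik1 replicates 1 to 3, at 486 and 703 CPM in sgSik1-3 replicates 1 and 2, and at 70.3, 191, 90.8 and 135 CPM in KT replicates 1 to 4. Every library outside KT was at least 442 CPM and every KT library at most 191, so the groups did not overlap. The KT;Lkb1f/f mean was 498 ± 41.4 CPM (SD, n = 3), the Sik-targeted mean 571 ± 111 (n = 5) and the KT mean 122 ± 53.6 (n = 4). The log2 change was 2.01 (SE 0.36, edgeR adjusted p 0.0197) in KT;Lkb1f/f against KT and 2.20 (SE 0.34, adjusted p 0.00207) in Sik-targeted against KT, or 4.04-fold and 4.61-fold higher. It was 2.19 (SE 0.38, adjusted p 0.00700) in sgSik1 and 2.29 (SE 0.41, adjusted p 0.00924) in sgSik1-3 against KT.

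The Areg call in KT;Lkb1f/f against KT was lost without KT replicate 1 (1.81, adjusted p 0.0592) or KT replicate 3 (1.88, adjusted p 0.107), and without KT replicates 2 and 3 together, where the change was 2.29 with adjusted p 0.210. The Areg call in sgSik1-3 against KT was lost without sgSik1-3 replicate 2 (2.00, adjusted p 0.120), and without KT replicates 2 and 3 neither sgSik1 (2.38, adjusted p 0.103) nor sgSik1-3 (2.53, adjusted p 0.0765) passed. With the replicate number as a block, the Areg calls were also lost in KT;Lkb1f/f (2.14, edgeR adjusted p 0.0587) and sgSik1-3 (2.34, adjusted p 0.0510). In Sik-targeted against KT Areg passed under every alternative tried.

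Ereg encodes epiregulin, which signals through EGFR and Erbb4. It had 324, 315 and 205 CPM in KT;Lkb1f/f, 170.1, 366 and 432 CPM in sgSik1, 287 and 310.1 CPM in sgSik1-3, and 35.8, 54.7, 35.8 and 49.1 CPM in KT replicates in order. Its lowest value outside KT, 170.1 CPM in sgSik1 replicate 1, was over the highest KT value, and the KT libraries lay close together. The change was 2.66 (SE 0.36, edgeR adjusted p 0.0042) in KT;Lkb1f/f and 2.81 (SE 0.34, adjusted p 0.000404) in Sik-targeted against KT, or 6.34-fold and 7.01-fold higher. It was 2.88 (SE 0.38, adjusted p 0.00147) in sgSik1 and 2.77 (SE 0.40, adjusted p 0.0044) in sgSik1-3. No single library decided an Ereg call; without KT replicates 2 and 3 together the change was 2.75 in KT;Lkb1f/f (adjusted p 0.144), 2.89 in sgSik1 (adjusted p 0.0747) and 2.81 in sgSik1-3 (adjusted p 0.0716), and only the Sik-targeted comparison still passed.

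Hbegf, on chromosome 18 from 36504927 to 36515805 (mm10), encodes heparin-binding EGF-like growth factor. It had 172, 200.2 and 268 CPM in KT;Lkb1f/f, 133, 139.8 and 159 CPM in sgSik1, 137 and 206 CPM in sgSik1-3, and 45.8, 43.0, 40.5 and 79.8 CPM in KT replicates in order. The groups did not overlap, and KT replicate 4 stood above the other KT libraries. The change was 2.02 (SE 0.33, edgeR adjusted p 0.0143) in KT;Lkb1f/f and 1.55 (SE 0.30, adjusted p 0.00624) in Sik-targeted against KT, or 4.05-fold and 2.93-fold higher. It was 1.47 (SE 0.34, adjusted p 0.0279) in sgSik1 and 1.71 (SE 0.38, adjusted p 0.0265) in sgSik1-3.

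Of the called ligands Hbegf depended most on which libraries were fitted. In KT;Lkb1f/f the Hbegf call was lost without KT replicate 2 (1.93, adjusted p 0.0701) or KT replicate 3 (1.90, adjusted p 0.0723), and without both (1.78, adjusted p 0.331). In sgSik1 it was lost without KT replicate 1, 2 or 3 or without sgSik1 replicate 1 or 3, at changes of 1.35 to 1.48 and adjusted p 0.0537 to 0.105. In sgSik1-3 it was lost without either sgSik1-3 library or without KT replicate 1, 2 or 3, at changes of 1.39 to 1.98 and adjusted p 0.0668 to 0.275. Without KT replicates 2 and 3 the Hbegf change was 1.27 in Sik-targeted (adjusted p 0.153), 1.15 in sgSik1 (adjusted p 0.345) and 1.44 in sgSik1-3 (adjusted p 0.234).

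Scaling moved the size of these changes. On total counts with no scaling factor the median log2 change of all tested genes against KT was -0.78 in KT;Lkb1f/f, -1.06 in Sik-targeted, -1.06 in sgSik1 and -1.41 in sgSik1-3 libraries. On that scale Areg changed by 1.27, Ereg by 1.95 and Hbegf by 1.33 in KT;Lkb1f/f, with no call, and by 1.17, 1.94 and 0.62 in the same order in Sik-targeted, where Areg and Ereg passed. Relative to the median gene the same fits gave 2.06, 2.74 and 2.11 in KT;Lkb1f/f and 2.24, 3.00 and 1.68 in Sik-targeted libraries. On total counts sgSik1 replicate 1 overlapped KT: its Areg level of 260.0 CPM lay below the 323 of KT replicate 2, its Ereg level of 67.0 below the 92.3 and 68.2 of KT replicates 2 and 3, and its Hbegf level of 52.6 below every KT value (72.6 to 90.9).

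Tgfa encodes TGF-alpha. It had 85.8, 9.76 and 24.0 CPM in KT;Lkb1f/f, 95.7, 51.4 and 89.8 CPM in sgSik1, 84.9 and 72.7 CPM in sgSik1-3, and 19.8, 26.9, 28.4 and 35.4 CPM in KT replicates in order. All 5 Sik-targeted libraries lay above all KT libraries, while the KT;Lkb1f/f libraries spanned the range, with replicate 1 among the Sik-targeted values and replicate 2 below every other library. The change of 1.49 (SE 0.47) in Sik-targeted against KT had an edgeR adjusted p of 0.0511 and missed the threshold. It passed with DESeq2 (adjusted p 0.0191), limma-voom (0.0407) and only these groups fitted (0.00625), and also without KT;Lkb1f/f replicate 1, 2 or 3 or sgSik1 replicate 2 (0.00625 to 0.0494). In KT;Lkb1f/f against KT it was 0.51 (SE 0.52, adjusted p 0.744), and without KT;Lkb1f/f replicate 1 the sign turned (-0.72).

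The 3 KT;Lkb1f/f libraries that disagreed on Tgfa also differed in markers of other cells. Summed CPM of 5 fibroblast and pericyte markers were 1.34, 332 and 72.8 in KT;Lkb1f/f replicates 1 to 3, against 12.7 to 37.0 in Sik-targeted and 17.7 to 295 in KT libraries. Summed CPM of 4 endothelial markers were 0.854, 131 and 54.6 in the same replicates, against 11.4 to 24.3 in Sik-targeted and 9.26 to 20.3 in KT libraries. Their part in the Tgfa values was not tested.

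Btc encodes betacellulin, a ligand of EGFR and Erbb4. It had 2.20, 15.9 and 8.98 CPM in KT;Lkb1f/f, 6.81, 14.0 and 8.22 CPM in sgSik1, 2.37 and 4.17 CPM in sgSik1-3, and 5.96, 4.25, 1.65 and 2.54 CPM in KT replicates in order. The sgSik1 libraries lay above all KT libraries (among all tested genes 8.57% did so) and above both sgSik1-3 libraries, which overlapped KT. No Btc change passed: 1.32 (SE 0.66, edgeR adjusted p 0.413) in KT;Lkb1f/f, 1.43 (SE 0.60, adjusted p 0.170) in sgSik1 and -0.12 (SE 0.72, adjusted p 0.941) in sgSik1-3, each against KT.

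Egf and Epgn, which encode EGF and epigen, were near the limit of counting. Egf had 0, 26 and 5 counts in KT;Lkb1f/f, 1, 0 and 1 in sgSik1, 1 and 3 in sgSik1-3, and 2, 22, 15 and 4 in KT replicates in order. Summed over libraries that was 2 Egf counts in sgSik1 and 43 in KT. Scaled to effective sizes the level in KT was 16.4 times that in sgSik1 (95% binomial interval 4.28 to 140, counting error only). Most of the KT counts, 22 and 15, came from replicates 2 and 3, the libraries that stood apart. A count of 3 in one library corresponds to 0.165 to 0.852 CPM, and 5 of the 8 libraries outside KT had 0 or 1 Egf counts. The sgSik1 libraries lay below all KT libraries, as 10.4% of all tested genes did. Epgn had 21, 45 and 6 counts in KT;Lkb1f/f, 1, 14 and 70 in sgSik1, 3 and 5 in sgSik1-3, and 1, 25, 11 and 12 in KT libraries, and all groups overlapped those of KT. Neither gene passed in any comparison (edgeR adjusted p 0.176 to 1 for Egf and 0.658 to 1 for Epgn), except that on total counts with no scaling factor Egf fell by 3.43 on the log2 scale in Sik-targeted against KT (adjusted p 0.0275).

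**Figure D2:**
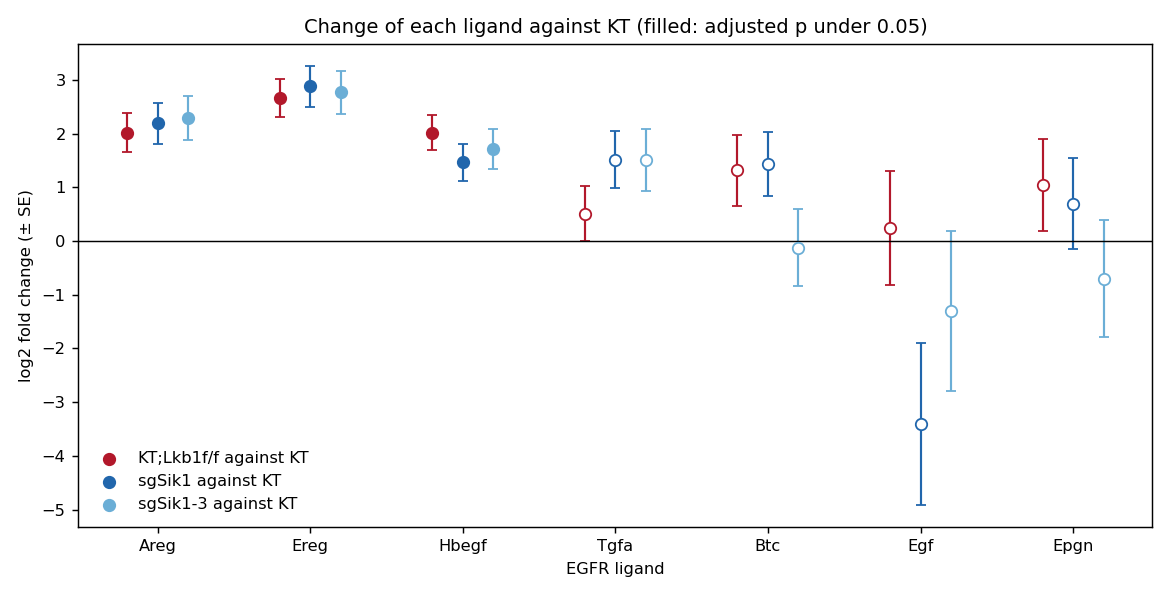
Log2 change of each ligand in KT;Lkb1f/f, sgSik1 and sgSik1-3 libraries against KT, with whiskers of 1 SE and filled points where the edgeR adjusted p was under 0.05. Areg, Ereg and Hbegf are filled in all 3 comparisons, between 1.47 and 2.88, and the Egf whiskers are wide because the gene had 0 to 26 counts a library.

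No ligand passed the test between KT;Lkb1f/f and Sik-targeted libraries or between sgSik1-3 and sgSik1 libraries. In KT;Lkb1f/f against Sik-targeted libraries 0 of 7 members passed, where 0.221% of all tested genes did. The difference was -0.19 for Areg (95% interval -0.87 to 0.49), -0.15 for Ereg (-0.80 to 0.51) and 0.47 for Hbegf (-0.13 to 1.07), with edgeR adjusted p 0.866, 0.898 and 0.551. These intervals leave room for differences of about 1 on the log2 scale. Tgfa differed by -0.98 (95% interval -1.99 to 0.03, adjusted p 0.449), and without KT;Lkb1f/f replicate 1, the library with 85.8 CPM, by -2.23 with adjusted p 0.0106.

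In sgSik1-3 against sgSik1 libraries 0 of 7 members passed, and 0 of 15303 genes did with edgeR, although 528 (3.45%) had an unadjusted p under 0.05 and DESeq2 called 6. The difference was 0.10 for Areg (95% interval -0.78 to 0.98), -0.11 for Ereg (-0.98 to 0.75) and 0.25 for Hbegf (-0.55 to 1.05). For Tgfa it was -0.0027 (SE 0.63). Btc was lower in both sgSik1-3 libraries than in all sgSik1 libraries (8.64% of all tested genes were), at -1.55 (SE 0.77, adjusted p 1).

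Per kilobase of exon Areg was the most abundant ligand RNA in every library, as it was in CPM. Levels and shares per kb depend on the exon lengths used, 1215 bases for Areg, 4128 for Ereg and 4834 for Hbegf. The annotation used in counting is not given, and evenness of coverage along these transcripts was not tested. Mean levels in KT;Lkb1f/f libraries were 410.2 CPM per kb for Areg, 68.1 for Ereg, 44.2 for Hbegf, 6.14 for Tgfa, 2.00 for Btc, 1.53 for Epgn and 0.106 for Egf. In KT libraries they were 100.3, 10.6, 10.8, 4.26, 0.797, 0.746 and 0.0876 CPM per kb in the same order of genes, where Ereg and Hbegf (10.6 ± 2.33 and 10.8 ± 3.83, SD, n = 4) did not differ beyond their spread, nor did Btc and Epgn. Areg made up 77.0% ± 2.6 of the summed ligand level per kb in KT;Lkb1f/f, 78.4% ± 7.0 in sgSik1, 79.9% ± 2.4 in sgSik1-3 and 77.3% ± 5.4 in KT libraries (SD).

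Ereg made up 12.9% ± 3.4 of the per-kb sum in KT;Lkb1f/f, 13.8% ± 6.3 in sgSik1, 12.1% ± 2.1 in sgSik1-3 and 8.73% ± 1.54 in KT libraries. Hbegf made up 8.28% ± 1.69 in KT;Lkb1f/f, 5.19% ± 0.74 in sgSik1, 5.77% ± 0.34 in sgSik1-3 and 9.11% ± 3.19 in KT libraries. The Ereg share overlapped the KT range (7.14% to 10.8%) in every group, with a lowest value of 8.94% in KT;Lkb1f/f, 6.55% in sgSik1 and 10.6% in sgSik1-3 libraries. Tgfa made up 0.300% to 2.56% of the sum in libraries outside KT and 2.23% to 4.51% in KT libraries.

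**Figure D3:**
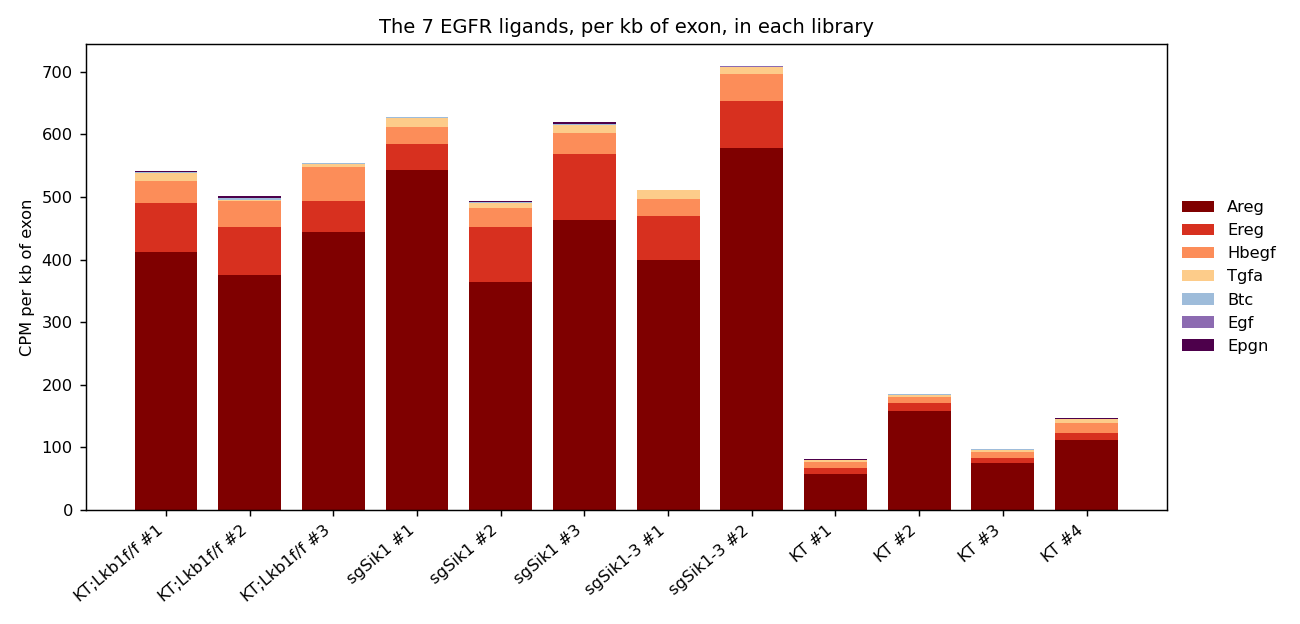
Stacked bars of CPM per kb of exon for the 7 ligands in each library, with KT;Lkb1f/f, sgSik1 and sgSik1-3 libraries to the left of KT. Areg is the largest block in every bar, and the bars outside KT are all taller than those of KT.

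Over the 12 libraries, log2 levels of Areg and Ereg had a Pearson correlation of 0.92, Areg and Hbegf of 0.89, and Ereg and Hbegf of 0.89, while Tgfa had 0.51, 0.45 and 0.28 with Areg, Ereg and Hbegf. These are descriptions over libraries that share 4 groups, with no test. The genes whose log2(CPM + 1) pattern was most like each ligand, among 10121 genes with a mean of at least 2 CPM, were Pnrc1 (0.97), Klf5 and Ier5 for Areg, Homer2 (0.96), Elmo1 and Stc1 for Ereg, and Slc38a2 (0.95), Nr4a2 and Brd2 for Hbegf. For Tgfa they were B4galt6 (0.97), Tns4 and Hlcs, and for Btc Rbm24 (0.90), Bend4 and Adnp2. Stc1, which encodes stanniocalcin, changed by 5.43 (SE 0.51) in KT;Lkb1f/f and 6.60 (SE 0.52) in Sik-targeted against KT, and Nr4a2, an orphan nuclear receptor, by 3.58 (SE 0.42) in KT;Lkb1f/f and 3.01 (SE 0.39) in Sik-targeted libraries.

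None of the other genes around the chromosome 5 ligands passed the test in the higher direction in KT;Lkb1f/f or Sik-targeted libraries. Within 500 kb of the 4 ligands RefSeq places 16 protein-coding genes, of which 15 were in the table. Of the 10 tested genes there that are not ligands, 0 were called in KT;Lkb1f/f against KT (1.16% of all tested genes were). In Sik-targeted against KT, 0 rose and 2 fell (6.56% of all tested genes fell): the lung chemokine gene Cxcl15 (-3.43, SE 0.62, adjusted p 0.00460) and Pf4, platelet factor 4 (-2.75, SE 0.84, adjusted p 0.0435). Changes without a call went both ways, and some were large. Cxcl5 changed by 2.45 (SE 0.87, edgeR adjusted p 0.0769) in Sik-targeted and -2.09 (SE 1.16) in KT;Lkb1f/f. Ppbp changed by 2.44 (SE 1.14) in Sik-targeted and 1.44 (SE 1.22) in KT;Lkb1f/f, and Cxcl1 by 0.50 (SE 0.52) and 1.51 (SE 0.58). The nearest gene beyond Epgn, Mthfd2l, a mitochondrial folate enzyme, changed by -0.04 (SE 0.74) in KT;Lkb1f/f and 0.31 (SE 0.65) in Sik-targeted libraries. The nearest beyond Btc, Parm1, changed by 0.97 (SE 1.04) in KT;Lkb1f/f and 0.07 (SE 0.93) in Sik-targeted libraries.

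None of the receptors for these ligands passed in any comparison. Egfr itself was low, with 4.64, 0.514 and 3.30 CPM in Lkb1-floxed, 3.69, 5.76 and 3.47 in sgSik1, 15.2 and 3.63 in sgSik1-3, and 4.24, 11.5, 12.1 and 6.99 in KT replicates in order. The groups overlapped, and the Egfr change was -1.67 (SE 0.71, edgeR adjusted p 0.316) in Lkb1-floxed and -0.51 (SE 0.58, adjusted p 0.612) in Sik-targeted against KT. Erbb2, the co-receptor with no ligand of its own, stood at 34.1 to 51.5 CPM in Lkb1-floxed, 35.3 to 128 in Sik-targeted and 24.4 to 32.8 in KT libraries, with no overlap against KT (6.64% and 7.56% of all tested genes were higher without overlap), and changed by 0.45 (SE 0.42, adjusted p 0.716) in Lkb1-floxed and 1.08 (SE 0.38, adjusted p 0.0764) in Sik-targeted libraries.

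Erbb3, the receptor that lacks a strong kinase of its own, changed by 0.44 (SE 0.30, edgeR adjusted p 0.591) in Lkb1-floxed and 0.52 (SE 0.27, adjusted p 0.223) in Sik-targeted libraries. Lkb1-floxed (47.3 to 48.3 CPM) and sgSik1-3 libraries (60.7 to 64.3) lay above all KT libraries (31.2 to 43.2). Among all tested genes 6.64% and 15.3% did so. The sgSik1 libraries (34.7 to 54.2 CPM) overlapped KT. Erbb4 had 0 counts in all Lkb1-floxed libraries and at most 1 in a Sik-targeted library, and in KT it had 32 and 18 counts in replicates 2 and 3, the libraries that stood apart, and 0 in replicates 1 and 4. Of the 4 neuregulins, ligands of Erbb3 and Erbb4, Nrg1 and Nrg4 were tested and 0 passed. Nrg1 changed by 0.69 (SE 0.71) in Lkb1-floxed and 0.79 (SE 0.64) in Sik-targeted libraries.

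Of 10 genes of the machinery that frees the ligands, sheddases and their iRhom partners, 0 passed in Lkb1-floxed against KT, where 1.16% of all tested genes did. In Sik-targeted against KT 2 rose and 1 fell, where 12.4% of all tested genes passed in either direction. Adam17, the main sheddase of amphiregulin, epiregulin, HB-EGF and TGF-alpha, stood at 48.8, 53.1 and 48.2 CPM in Lkb1-floxed, 33.2 to 58.8 in Sik-targeted and 39.8 to 49.0 in KT libraries. Its change was 0.14 (SE 0.29, edgeR adjusted p 0.902) in Lkb1-floxed and 0.05 (SE 0.26, adjusted p 0.932) in Sik-targeted against KT. Adam10 changed by 0.32 (SE 0.40) in Lkb1-floxed and 1.13 (SE 0.36, adjusted p 0.0505) in Sik-targeted libraries.

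The sheddases that rose in Sik-targeted libraries were Adam12 (1.71, SE 0.54, edgeR adjusted p 0.0481) and Adam15 (1.30, SE 0.40, adjusted p 0.0477). Adam12 was high in sgSik1 replicates 1 and 3, with 35.5 and 31.2 CPM, while the other Sik-targeted libraries had 6.05 to 9.61 and KT 4.45 to 6.93. Adam8, a protease of leukocytes and activated cells, fell by 3.26 on the log2 scale (SE 0.85, adjusted p 0.0240), with 0.144 to 0.725 CPM in Sik-targeted and 0.847 to 5.18 CPM in KT libraries.

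Of 9 genes that act back on the receptors, 0 passed in Lkb1-floxed against KT (1.16% of all tested genes did), and 1 rose and 1 fell in Sik-targeted against KT (12.4% passed in either direction). Errfi1 encodes Mig-6, which binds and inhibits the EGFR kinase. It had 1050, 907 and 1240 CPM in Lkb1-floxed, 3085, 859 and 2640 in sgSik1, 897 and 1471 in sgSik1-3, and 762, 619, 342 and 606 in KT replicates in order. No KT library reached the lowest of the others, and the Errfi1 change was 0.86 (SE 0.46, edgeR adjusted p 0.466) in Lkb1-floxed and 1.60 (SE 0.43, adjusted p 0.0262) in Sik-targeted libraries. In that comparison Lrig3, of a family of membrane proteins that restrain ErbB receptors, fell by 3.48 on the log2 scale (SE 1.00, adjusted p 0.0339), at 0 to 2 counts a library against 8 to 28 in KT. Of 7 adaptors downstream of the receptors Shc1 alone passed in the Sik-targeted comparison, a share near the 12.4% of all tested genes, and it rose (0.89, SE 0.27, adjusted p 0.0437), and its change in Lkb1-floxed was 0.98 (SE 0.30, adjusted p 0.147).

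Among the receptor, neuregulin, sheddase, feedback, adaptor and ERK lists, genes that ERK signalling raises held the most calls. Of 18 genes induced by tissue handling, described below, 8 rose in Lkb1-floxed against KT and 10 in Sik-targeted. Of 14 genes that ERK signalling raises 4 rose and 0 fell in Lkb1-floxed against KT, where 0.611% of all tested genes rose. Their median change was 1.50 against -0.04 over all tested genes. In Sik-targeted against KT 8 rose and 2 fell, where 5.81% of all tested genes rose and 6.56% fell, with a median of 2.03 against -0.03. Fosl1, an AP-1 subunit, had 22.0, 17.9 and 11.2 CPM in Lkb1-floxed, 122, 5.76 and 20.5 in sgSik1, 13.5 and 17.6 in sgSik1-3, and 0.157, 0.439, 0.236 and 0.424 in KT replicates in order. With 1 to 6 counts in each KT library the Fosl1 changes of 5.67 (SE 0.96, edgeR adjusted p 0.0179) in Lkb1-floxed and 6.72 (SE 0.95, adjusted p 0.00162) in Sik-targeted libraries have a weakly measured base.

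Dusp6, a phosphatase that inactivates ERK, rose by 2.19 (SE 0.45, edgeR adjusted p 0.0365) in Lkb1-floxed and 2.56 (SE 0.42, adjusted p 0.00281) in Sik-targeted against KT. Spry4, a Sprouty inhibitor of receptor signalling, rose by 1.83 (SE 0.40, adjusted p 0.0408) in Lkb1-floxed and 1.90 (SE 0.37, adjusted p 0.00652) in Sik-targeted, and Phlda1 by 2.03 (SE 0.45, adjusted p 0.0414) in Lkb1-floxed and 2.50 (SE 0.42, adjusted p 0.00335) in Sik-targeted libraries. Dusp4 (2.15), Dusp5 (2.96), Egr1 (2.45) and Myc (2.28) rose in Sik-targeted libraries, and their changes in Lkb1-floxed were 1.18, 2.61, 2.10 and 2.17 with adjusted p 0.0665 to 0.216. Spry1 fell by 1.09 (SE 0.26, adjusted p 0.0157) and Etv5, a PEA3-family transcription factor, fell by 2.11 (SE 0.36, adjusted p 0.00351) in the Sik-targeted comparison. Of the 14 genes in this list 1, Spry1, differed between Lkb1-floxed and Sik-targeted libraries, where 0.221% of all tested genes did. The Spry1 difference was 1.63 (SE 0.28, edgeR adjusted p 0.0267), with 48.3 to 62.3 CPM in Lkb1-floxed and 13.8 to 23.8 in Sik-targeted libraries.

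The receptor, neuregulin, sheddase, feedback, adaptor and ERK lists were also counted together. Of their genes 4 passed in Lkb1-floxed against KT, where 1.16% of all tested genes did. In Sik-targeted against KT 16 passed, where 12.4% of all tested genes did. Leaving out KT replicates 2 and 3 left 0 in Lkb1-floxed and 1 in Sik-targeted. Leaving out 1 library at a time gave 0 to 6 in Lkb1-floxed and 7 to 19 in Sik-targeted, with 0 in Lkb1-floxed without KT replicate 1, 2 or 3, and with 7, 8, 10 and 10 in Sik-targeted without KT replicate 2, KT replicate 3, KT replicate 1 and sgSik1 replicate 3. In Lkb1-floxed the count was 2 without Lkb1-floxed replicate 1 or 2, sgSik1 replicate 3 or sgSik1-3 replicate 1, and 1 without sgSik1-3 replicate 2. Calls over all tested genes moved as well, from 13 to 242 in Lkb1-floxed and 577 to 2655 in Sik-targeted with 1 library left out. The genes of these lists respond to other signals besides EGFR, and the data hold no measure of receptor activity.

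**Figure D4:**
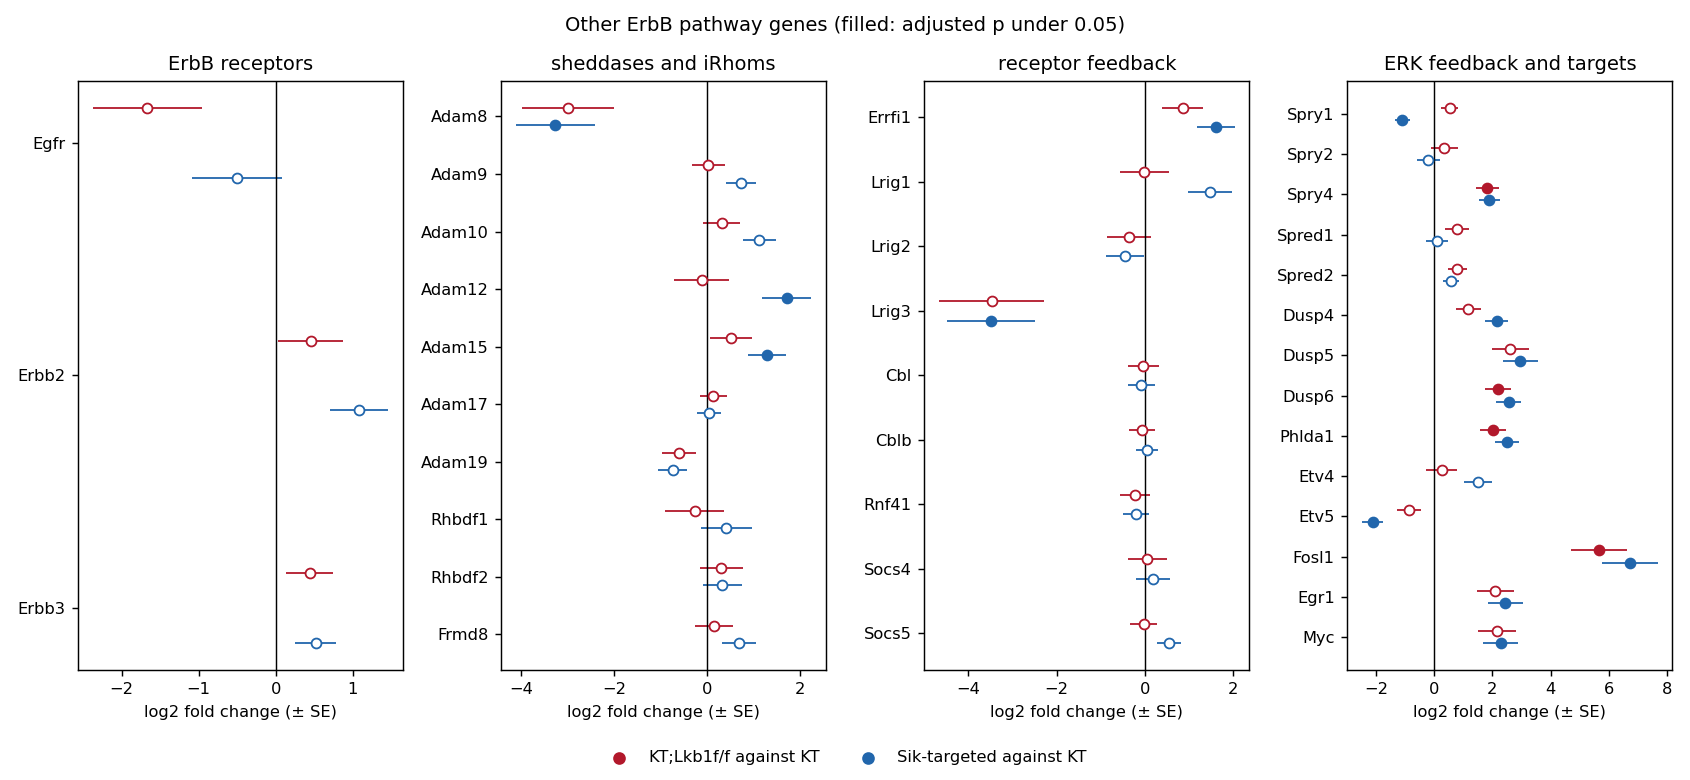
Log2 change with 1 SE of ErbB receptors, sheddases and iRhoms, receptor feedback genes and ERK feedback genes and targets in KT;Lkb1f/f and in Sik-targeted libraries against KT, filled where the edgeR adjusted p was under 0.05. No receptor is filled, Adam17 sits near 0, and the filled points of the ERK panel lie to the right except Spry1 and Etv5.

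Genes induced by tissue handling at 37C differed in the same direction as the 3 ligands. Summed CPM of 18 dissociation response genes (Fos, Jun, Egr1, heat shock genes and others) ran from 14594 to 23576 in Lkb1-floxed, 11117 to 29210 in sgSik1, 10235 to 11828 in sgSik1-3 and 2201 to 5944 in KT libraries. In Lkb1-floxed 16 of the 18 lay above every KT library without overlap (6.64% of all tested genes did), and in Sik-targeted 10 of 18 did (7.56%). In Lkb1-floxed 8 of 18 rose, against 0.611% of all tested genes, with a median change of 2.08. In Sik-targeted 10 of 18 rose, against 5.81%, with a median change of 1.93. Egr1 is in both this list and the ERK list. The labels give all tumours the same enzymes and digestion, and the part of handling in the ligand values was not tested.

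Summed markers of macrophages and of leukocytes in general were lower outside KT, and those of mast cells and basophils were higher. Summed CPM of 8 macrophage markers were 12.9 to 14.5 in Lkb1-floxed, 12.4 to 23.6 in sgSik1, 21.8 to 23.0 in sgSik1-3 and 81.3 to 1062 in KT libraries, with the highest in KT replicates 2 and 3. Emr1, which encodes the F4/80 antigen used to exclude macrophages in the sort, had 0 counts in 7 of the 8 libraries outside KT, and Marco and Ear2 had 0 in 5 and 6 of them. Summed CPM of 4 general leukocyte markers were 0 to 2.67 outside KT and 11.8 to 30.5 in KT. Among KT libraries, replicate 2 had both the highest summed ligand level (324 CPM) and the highest macrophage sum. The other KT libraries did not follow that order. Replicate 4 had the lowest macrophage sum (81.3 CPM) with 305 CPM of ligands. Replicate 3 had 637 CPM of macrophage markers with 199 CPM of ligands, and replicate 1 had 280 with 178. Summed CPM of 5 mast cell and basophil markers were 5.68 to 216 outside KT and 1.41 to 5.27 in KT. Of these markers Mcpt8 was up to 215 CPM outside KT, against at most 2.33 in KT. Ms4a2 and Fcer1a, which build the IgE receptor of those cells, had 0 counts in all 8 libraries outside KT. Summed CPM of 6 T, NK and innate lymphoid markers were 0 to 1.03 outside KT and 0.628 to 6.88 in KT, and of 4 neutrophil markers 0 to 11.8 outside KT and 0.212 to 3.92 in KT. The part of these cells in the ligand values was not tested.

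Markers of airway cells were also lower outside KT. Summed CPM of 3 club cell markers (Scgb1a1, Scgb3a2, Cyp2f2) were 24.9 to 44.8 in Lkb1-floxed, 31.3 to 89.3 in sgSik1, 14.0 to 23.2 in sgSik1-3 and 361 to 3024 in KT libraries. Summed CPM of 5 ciliated cell markers were 3.66 to 21.1 in Lkb1-floxed, 0.662 to 6.77 in sgSik1, 1.66 to 1.81 in sgSik1-3 and 34.3 to 64.5 in KT libraries. Sums of 7 markers of alveolar type 2 cells, the surfactant makers, were 12981 to 34668 CPM in Lkb1-floxed and 8875 to 31321 in sgSik1. They were 8800 to 9010 in sgSik1-3 and 18599 to 79510 in KT libraries. The sgSik1-3 sums lay below KT and those of the other groups overlapped it. Single markers departed from the sum. In sgSik1, 4 of the 7 lay below every KT library, as 10.4% of all tested genes did. Sftpc stood at 406 to 4443 CPM there, against 7574 to 55400 in KT libraries. Sftpb went the other way, reaching 29164 CPM in sgSik1 against at most 7385 in KT. In Sik-targeted against KT 3 of the 7 fell, where 6.56% of all tested genes fell, and 2 had positive changes without a call. The summed CPM of 5 alveolar type 1 markers overlapped KT in all groups, but not every single marker did. Cav1 stood at 3.69 to 9.25 CPM in Sik-targeted against 14.9 to 44.2 in KT libraries. Pdpn stood at 0 to 2.93 CPM in Lkb1-floxed against 4.87 to 14.6 in KT libraries. Aqp5 went the other way in sgSik1, with 182 to 328 CPM against 76.9 to 178 in KT libraries. The part of these cell types in the ligand values was not tested.

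**Figure D5:**
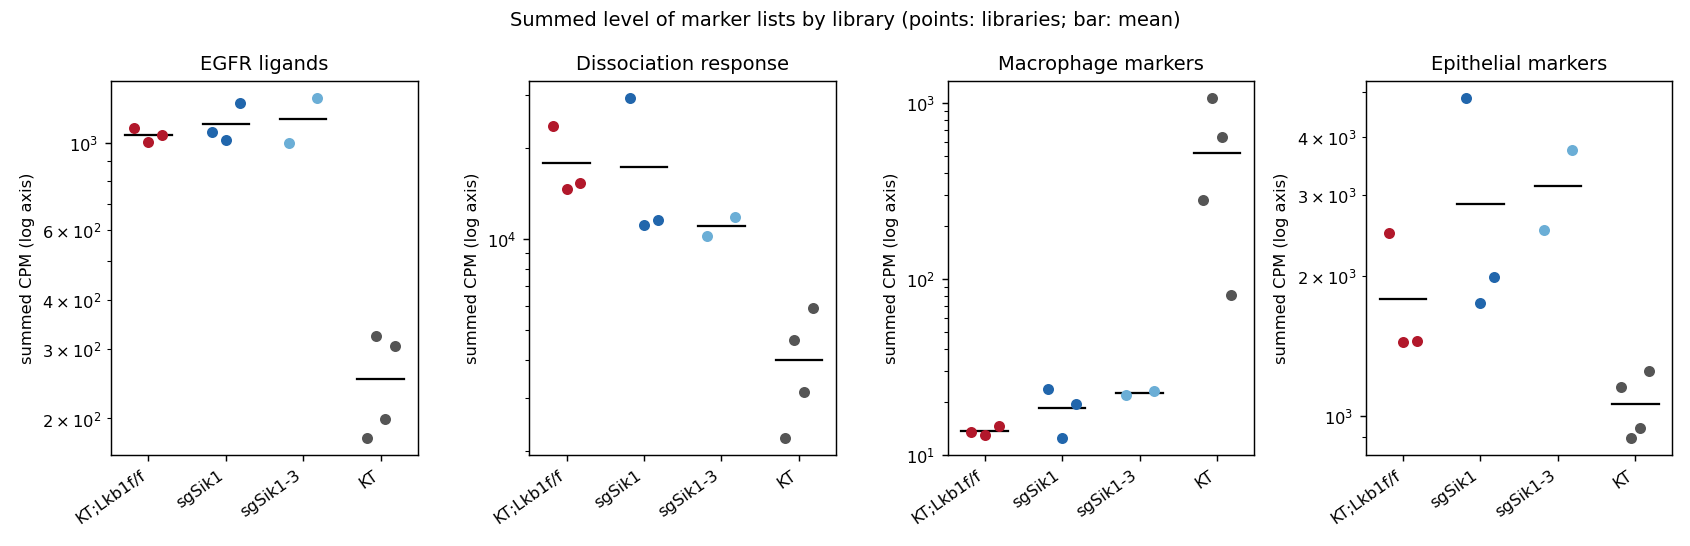
Summed CPM (log axes) of the 7 ligands, 18 dissociation response genes, 8 macrophage markers and 5 epithelial markers in each KT;Lkb1f/f, sgSik1, sgSik1-3 and KT library, with a bar at the mean. KT libraries are lowest for ligands, dissociation response and epithelial markers and highest for macrophage markers.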

How the data were processed

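Counts of reads per gene for 12 libraries were used as the authors deposited them, with alignment by STAR 2.4.2a and counting by HTSeq on mm10 per the submitters' processing notes. For the annotation, and for strandedness in counting, the setting is not given in the sources used here. Per the labels' protocols, RNA from small numbers of sorted cells was amplified before library preparation.

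Groups follow the titles, and the 5 libraries whose genotype label names Cas9 were also pooled as Sik-targeted. In R 4.3.3, edgeR 4.0.16 (TMM, filterByExpr, robust quasi-likelihood test) was fitted to the 3 genotype groups (13575 genes) and to the 4 title groups (15303 genes), with Benjamini-Hochberg adjustment over all genes tested and a threshold of 0.05. SE is the absolute log2 change over the square root of F, and the 95% intervals of differences come from it. Other intervals cover counting error only. CPM uses the effective sizes of the 4-group fit, and levels per kb use the union of exons in GENCODE M21. The edgeR fit alone was also run on simulated counts with known changes, for KT;Lkb1f/f and Sik-targeted against KT. The simulated dispersion was the same for all genes.

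All 7 ligands are described. Of the pathway lists the receptors, the genes called in either genotype comparison against KT and the gene with the smallest p are named, with some others chosen after their values were seen, such as Adam17 and Adam10. The ligands and lists were chosen with earlier results of these data known. Of each ligand with a mean of at least 2 CPM the 3 genes most correlated over 12 libraries are named. Alternatives were DESeq2 1.42.0, limma-voom (limma 3.58.1), RLE size factors, no low-count filter, a replicate block, other sets of groups, each library left out and KT replicates 2 and 3 left out. Scaling on total counts, with and without the 4 most abundant transcripts, was added after seeing the data.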

Additional observations from a re-analysis of the deposited data

Results flagged for a closer look

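Hbegf stood at 79.8 CPM in KT replicate 4, against 40.5 to 45.8 CPM in the other 3 KT libraries. Its gap to the nearest KT library was 0.864 of the range of the group, over Dixon's 95% critical value for 4 samples. It was the only such case among 14 tests, the 7 ligands in KT and in Sik-targeted libraries, and chance marks about 1 group in 20. Without KT replicate 4 the Hbegf calls against KT all held.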

How the results depend on the processing

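In Sik-targeted against KT, Areg and Ereg passed and kept their direction under all 22 alternatives, and 3 or 4 ligands passed whichever library was left out. Dropping KT replicates 2 and 3 together, the count of ligands past the threshold was 0 in KT;Lkb1f/f, 0 in sgSik1 and 0 in sgSik1-3 against KT. The pathway lists then gave 0 calls in KT;Lkb1f/f and 1 in Sik-targeted. In KT;Lkb1f/f the log2 changes in that fit were 2.29 for Areg, 2.75 for Ereg and 1.78 for Hbegf. Over all alternatives, calls among all tested genes went as low as 3 in KT;Lkb1f/f, 1 in sgSik1 and 11 in sgSik1-3. On total counts with no scaling factor the count of ligands was 0 in KT;Lkb1f/f, 1 in sgSik1 (Ereg) and 0 in sgSik1-3. On total counts without the 4 most abundant transcripts Hbegf missed the threshold in sgSik1 (1.14, edgeR adjusted p 0.0815) and sgSik1-3 (1.47, adjusted p 0.0535). The cause of these changes was not tested. The pathway lists in KT;Lkb1f/f against KT, with 4 calls, gave 8 with DESeq2, 7 with no low-count filter, 2 with the 4 title groups, 1 on total counts and 2 on total counts without the 4 most abundant transcripts. Whether the replicate numbers pair the libraries could not be decided. The 15 same-numbered pairs had correlations of -0.40 to 0.22 (median 0.073), and 6 were over 0.1. The 38 pairs with different numbers had -0.31 to 0.40 (median -0.041), and 10 were over 0.1. With 2 libraries, the sgSik1-3 deviations from their mean mirror each other, so their correlations come in opposite signs. With the replicate number as a block the pathway lists gave 2 calls in KT;Lkb1f/f and 9 in Sik-targeted, and Areg had 2.14 (adjusted p 0.0587) in KT;Lkb1f/f and 2.34 (adjusted p 0.0510) in sgSik1-3. The block turned the sign of changes without a call for Egf in KT;Lkb1f/f (-0.19), Epgn in sgSik1-3 against KT (0.10) and Tgfa in sgSik1-3 against sgSik1 (0.070).

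With 1 library left out, the count of ligands ran from 1 to 3 in KT;Lkb1f/f, 2 to 4 in sgSik1 and 1 to 4 in sgSik1-3 against KT, 0 to 1 in KT;Lkb1f/f against Sik-targeted, and 0 to 0 in sgSik1-3 against sgSik1; the pathway lists ran from 0 to 6 in KT;Lkb1f/f and 7 to 19 in Sik-targeted. Where a fit left 1 sgSik1-3 library, that library was assumed to vary like the other groups. Log2 changes that turned sign on leaving out 1 library, none of them called, ran from -0.72 to 0.99 for Tgfa, -1.19 to 0.84 for Egf in KT;Lkb1f/f against KT, -0.40 to 0.68 for Epgn in Sik-targeted, -0.12 to 1.11 for Epgn in sgSik1 and -0.59 to 0.22 for Btc in sgSik1-3 against KT. In KT;Lkb1f/f against Sik-targeted they ran from -0.30 to 0.030 for Ereg and -0.37 to 0.80 for Btc, and in sgSik1-3 against sgSik1 from -0.20 to 0.34 for Areg, -0.38 to 0.15 for Ereg, -0.082 to 0.51 for Hbegf and -0.23 to 0.19 for Tgfa. Among the other alternatives, limma-voom turned Tgfa (-0.012) and Egf (-0.89) in KT;Lkb1f/f and Btc in sgSik1-3 (0.066) against KT. Total counts turned Tgfa (-0.30) and Egf (-0.40) in KT;Lkb1f/f, Btc (-0.0055) and Epgn (-0.32) in Sik-targeted, Areg (0.10) and Ereg (0.0092) in KT;Lkb1f/f against Sik-targeted, and Areg in sgSik1-3 against sgSik1 (-0.058). Without the 4 most abundant transcripts Egf in KT;Lkb1f/f was -0.056, and with 4 title groups Epgn in Sik-targeted was -0.0018. The Tgfa difference of sgSik1-3 against sgSik1, -0.0027 as reported, became 0.028 with DESeq2, 0.027 with RLE size factors, 0.026 with only these groups fitted, 0.042 with no filter, 0.047 with limma-voom and 0.10 without the 4 most abundant transcripts.

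Over all alternatives the number of genes past the threshold ran from 3 to 846 in KT;Lkb1f/f (158 as reported), 98 to 4565 in Sik-targeted (1679), 1 to 1783 in sgSik1 (588) and 11 to 1941 in sgSik1-3 (443) against KT, 0 to 710 in KT;Lkb1f/f against Sik-targeted (30) and 0 to 44 in sgSik1-3 against sgSik1 (0). Depth limits Egf, Epgn, Erbb4 and Lrig3, where a few counts decide a level.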
